A study of Rattus norvegicus with 6 samples.

Results

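The ATF4 amino acid stress response is described here by 10 genes taken from the deposited table by symbol, out of 35362 gene rows. They are Atf4, Ddit3, Trib3, Chac1, Sesn2, Asns, Psat1, Phgdh, Shmt2 and Slc7a11, and each symbol matched a single row. Their levels were compared between INS-1 cells that overexpressed menin S487D (3 libraries) and INS-1 cells that overexpressed menin S487A (3 libraries). INS-1 cells, derived from a rat insulinoma, make and release insulin, and were used at passages 75 to 80. Both groups carried a Flag-tagged menin mutant delivered with a pMX-puro retrovirus, in which the serine named in the label is replaced by aspartate, an acidic residue (S487D), or by alanine, which cannot be phosphorylated (S487A). Cells without a transgene and cells with wild-type menin were not analysed here, and the labels do not say whether a line is a clone or a pool, or whether each library had a culture of its own. The p-values thus measure only how far these samples spread, which may be technical. The mutant cannot be told apart from the cell population that carries it.

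ATF4 is a leucine zipper transcription factor made when the initiation factor eIF2 is phosphorylated. Kinases that sense misfolded protein in the endoplasmic reticulum (PERK), uncharged transfer RNA (GCN2), double-stranded RNA (PKR) or haem shortage (HRI) phosphorylate eIF2, general translation falls, and Atf4 mRNA is then translated more. ATF4 binds DNA with C/EBP partners and activates genes of amino acid synthesis, amino acid uptake and transfer RNA charging, along with regulators that end or redirect the response. Because ATF4 is controlled largely at translation, its mRNA level does not report the amount of the protein. Beta cells, which make large amounts of proinsulin, are known to depend on PERK.

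The element that ATF4 and C/EBP partners bind together has the core TGATGNAA, which reads TTNCATCA on the other strand. Promoters of all 10 genes were found by symbol in the RefSeq table of the GRCr8 rat assembly, each from 250 bases before to 50 after the start of the gene. The core occurred, on either strand, in 2 of 10, those of Chac1 and Trib3, and in 1332 of 33469 promoters of the same length (3.98%). The stretches of 250 bases before the start are shown for both and for Asns, the gene with the largest change among the 10, with the core in capitals. They run 5′ to 3′ on the strand of the gene. Chac1 is taken from GRCr8 chr3:126795881-126796130 (plus strand), Trib3 from chr3:161275534-161275783 (minus strand) and Asns from chr4:36769416-36769665 (minus strand).
Chac1: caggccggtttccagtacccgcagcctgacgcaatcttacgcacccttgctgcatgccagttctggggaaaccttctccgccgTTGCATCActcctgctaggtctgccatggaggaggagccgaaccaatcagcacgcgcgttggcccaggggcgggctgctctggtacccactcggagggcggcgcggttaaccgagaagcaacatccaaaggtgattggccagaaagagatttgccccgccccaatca
Trib3: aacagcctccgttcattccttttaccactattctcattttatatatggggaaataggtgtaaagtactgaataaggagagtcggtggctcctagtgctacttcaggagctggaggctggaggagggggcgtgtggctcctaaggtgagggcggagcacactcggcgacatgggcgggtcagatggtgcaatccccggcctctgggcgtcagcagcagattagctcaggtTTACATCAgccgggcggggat
Asns: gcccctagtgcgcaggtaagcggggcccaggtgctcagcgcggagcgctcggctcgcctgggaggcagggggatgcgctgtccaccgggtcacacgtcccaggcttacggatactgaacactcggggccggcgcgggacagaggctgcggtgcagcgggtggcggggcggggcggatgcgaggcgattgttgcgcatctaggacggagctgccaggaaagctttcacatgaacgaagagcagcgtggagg
The core lies at positions -167 to -160 in Chac1 and at -21 to -14 in Trib3, counted back from the start. In the Asns stretch these letters were not found, which says only that they are not in this window.

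Values are RPKM, reads scaled by gene length and by the total reads of the library. Multiplied back by length, they gave 9444801 to 10867549 gene reads per library, and ribosomal RNA took 2.15 to 4.50% of them in S487D and 0.93 to 2.49% in S487A. All 14 beta cell markers were tested, of which 9 rose, 4 fell (Nkx6-1, Isl1, Neurod1 and Chga) and 1 was not called. They summed to 21326 to 22487 RPKM in S487D and 9114 to 9733 in S487A. Ins1 alone had 16211 to 17297 RPKM in S487D and 4489 to 5019 in S487A. Without Ins1 the markers summed to 5011 to 5190 RPKM in S487D and 4574 to 4714 in S487A. Of 16 markers of other cells, 8 were listed at 0, none reached the filter on low values, and they summed to 1.25 to 1.49 RPKM in S487D and 1.59 to 2.32 in S487A. A 0 in these data cannot be read as absence, as described with Phgdh below. Men1 itself was read at 113, 103 and 119 RPKM in S487D and at 71.2, 76.7 and 75.0 RPKM in S487A. The species of the transgene is not stated, so these reads check its expression only in part. Genes that reached 1 RPKM in 3 or more libraries were tested by limma on log2(RPKM + 1), a scale that understates changes of low genes. A gene is said to rise or fall in S487D where the Benjamini-Hochberg adjusted p over all genes tested was under 0.05. Of 12527 genes tested, 2523 rose (20.1%) and 3041 fell (24.3%), together 44.4%. Upward calls were 45.3% of calls, but 55.4% with quantile normalization and 58.9% with libraries centred on their medians.

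The ATF4 response genes that could be tested, 8 of the 10, differed by 1.23-fold or less in RPKM + 1 between the mutants. Folds in this text are of RPKM + 1, as fitted. In mean RPKM, the ratio of S487D to S487A was 0.808 for Asns and 0.840 for Chac1. Ddit3 rose, Asns and Psat1 fell, and Atf4, Trib3, Chac1, Sesn2 and Shmt2 passed no test. Thus 3 of 8 were called, or 37.5%, against 44.4% of all genes tested. The single rise compares with 20.1% of all genes and the 2 falls with 24.3%, so these shares were near the background. All 8 intervals (95%, limma) lay within 1.5-fold in either direction. By another measure, 1034 of all 12527 genes tested were called with a change of at least that size. Most genes tested thus had no such call either, and the members do not stand out by this. The members' median log2 change was -0.12, beside -0.01 over all genes tested, and 6 of the 8 had the lower mean in S487D. In bulk RNA, fewer cells with a transcript and less of it per cell cannot be told apart.

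**Figure D1:**
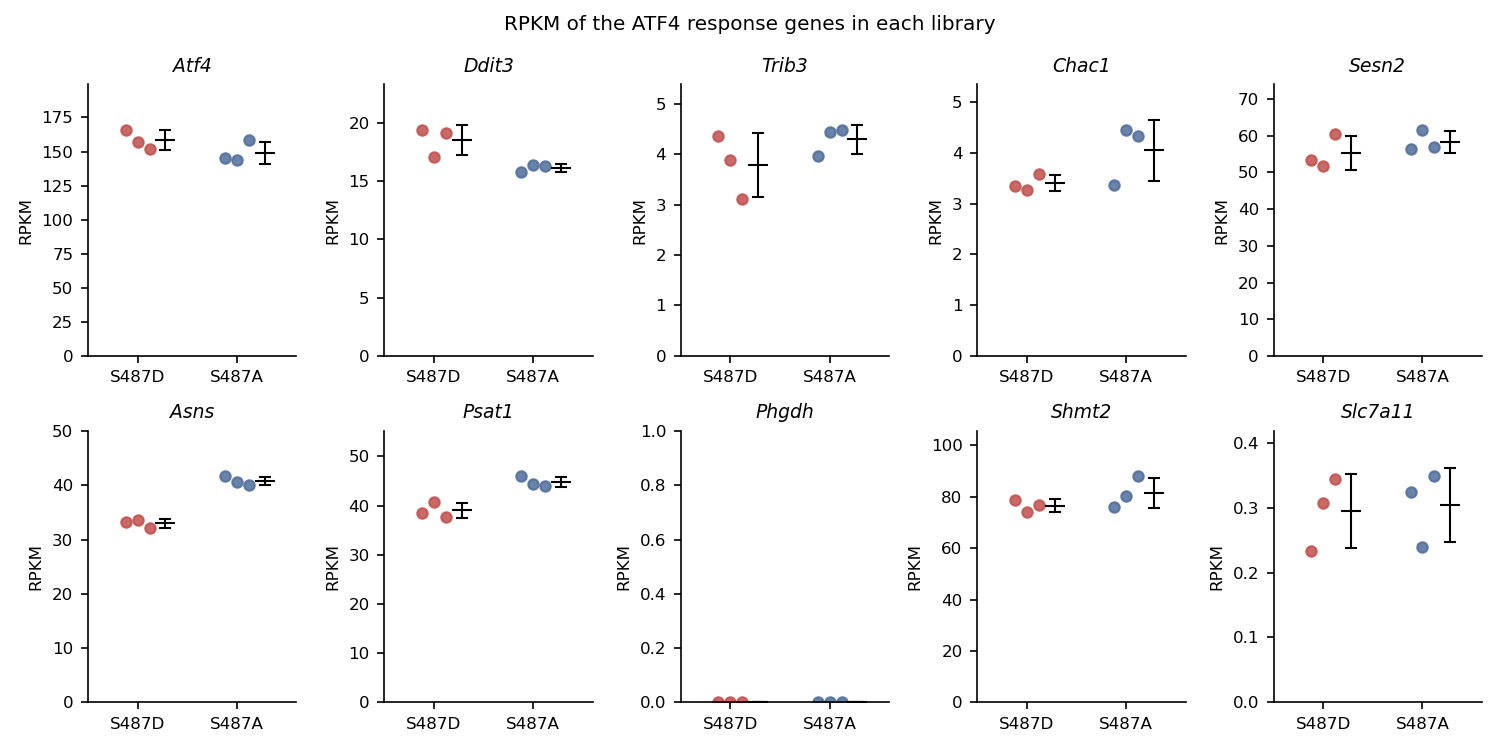
RPKM of the 10 genes in each library (points), with S487D on the left and S487A on the right of each panel, and the mean and SD of 3 libraries beside them (bars); each axis starts at 0 and has its own scale. The groups are apart for Ddit3, Asns and Psat1, overlap for the others, and Phgdh is listed at 0 in every library.

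Among the regulators, Atf4 was the most abundant of the 10 genes, with 166, 157 and 152 RPKM in S487D and 145, 143 and 159 RPKM in S487A. The highest S487A library lay above the lowest S487D library, so the groups overlapped. Atf4 averaged 158 ± 7.3 RPKM in S487D and 149 ± 8.3 in S487A (SD, n = 3 each), a log2 change of 0.09 with a 95% interval from -0.03 to 0.20 (limma adjusted p = 0.204). Centring each library on its median made it a rise (log2 change 0.14, adjusted p = 0.0363), and its adjusted p ran from 0.0363 to 0.907 over all 16 alternatives. Atf4 lies on chromosome 7 from 121480723 to 121482781 (rn6, as are all gene positions).

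Ddit3 encodes CHOP, a C/EBP-like factor that ATF4 induces and that favours cell death when stress persists. It had 19.4, 17.1 and 19.1 RPKM in S487D, against 15.8, 16.4 and 16.3 RPKM in S487A. All 3 S487D libraries were above the S487A libraries. The log2 change was 0.18 (SE 0.058, adjusted p = 0.0275), or 1.14-fold, and the exact two-sided permutation test gave p = 0.1, the smallest that 3 libraries against 3 allow. The call was near its threshold. It was lost when genes of any level were tested (adjusted p = 0.0518) and when S487D replicate 1 (0.101), S487D replicate 3 (0.0849), S487A replicate 1 (0.0735), S487A replicate 2 (0.0503) or S487A replicate 3 (0.0571) was left out. The Ddit3 row, on chromosome 7 from 70578545 to 70585074, overlaps Mars and Mbd6 on the other strand, and reads from a library kit that does not mark strand cannot be told apart there. Mars, the methionyl-tRNA synthetase gene, stood at 50.6 ± 2.7 RPKM in S487D and 47.1 ± 4.6 in S487A (log2 change 0.11, adjusted p = 0.237). Its part in the Ddit3 value was not tested.

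Trib3 and Chac1, the members with the core in their promoters, were the lowest of the tested members. Trib3, a pseudokinase that CHOP and ATF4 induce and that restrains both ATF4 and Akt, had 4.36, 3.89 and 3.11 RPKM in S487D and 3.97, 4.44 and 4.48 RPKM in S487A. Chac1, an enzyme that cleaves glutathione, had 3.36, 3.28 and 3.58 RPKM in S487D and 3.37, 4.46 and 4.34 RPKM in S487A. For both genes the groups overlapped, in Chac1 through S487A replicate 1 alone, which lay among the S487D libraries. The log2 change was -0.15 for Trib3 (95% interval -0.38 to 0.08, adjusted p = 0.255) and -0.19 for Chac1 (-0.41 to 0.02, adjusted p = 0.136). Without S487A replicate 1, Chac1 passed the test (log2 change -0.29, adjusted p = 0.019); its adjusted p ran from 0.019 to 0.515 over 15 alternatives. These values rest on 42 to 69 reads per library for Trib3 and 49 to 76 for Chac1, so counting alone gives a relative SD of up to 15.4% for Trib3 and 14.3% for Chac1. The SD between Trib3 libraries was 16.7% of the mean in S487D and 6.64% in S487A. That between Chac1 libraries was 4.53% in S487D and 14.8% in S487A. Trib3 lies on chromosome 3 from 147814056 to 147819650 and Chac1 on chromosome 3 from 111160205 to 111163425.

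Sesn2, a sestrin that holds back mTORC1 when leucine is short, had 53.4, 51.8 and 60.6 RPKM in S487D and 56.3, 61.6 and 56.9 RPKM in S487A. The groups overlapped, and the log2 change was -0.08 (95% interval -0.22 to 0.06, adjusted p = 0.347). With 1336 to 1815 reads per library, counting error was 2.35 to 2.74%, and the spread between libraries was 8.49% of the mean in S487D and 4.97% in S487A. Sesn2 lies on chromosome 5 from 150684891 to 150703846.

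Among the amino acid synthesis genes, Asns showed the largest difference of the 10. Asns encodes asparagine synthetase, a classical target of the amino acid branch of the response. It had 33.3, 33.5 and 32.1 RPKM in S487D, against 41.7, 40.6 and 40.1 RPKM in S487A. The groups were well apart, with SDs of 2.33% of the mean in S487D and 1.94% in S487A. The log2 change was -0.30 (SE 0.041, 95% interval -0.39 to -0.21, adjusted p = 3.49e-04), and the fall was called in all 16 alternatives, with log2 changes from -0.31 to -0.24. The exact permutation p was 0.1, the smallest possible. Asns lies on chromosome 4 from 33742876 to 33761100.

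Psat1, the phosphoserine aminotransferase of serine synthesis, had 38.5, 40.8 and 37.8 RPKM in S487D, against 46.0, 44.3 and 44.0 RPKM in S487A. Every S487D library was below every S487A library (exact permutation p = 0.1). The log2 change was -0.19 (SE 0.045, adjusted p = 0.00662), and the fall was called in all 16 alternatives, with adjusted p from 0.00282 to 0.039. Psat1 lies on chromosome 1 from 233124089 to 233145941. Groups that do not overlap, as in Asns, Psat1 and Ddit3, were found in 54.6% of all genes tested, with S487D above in 25% and below in 29.5%. Among the 8 tested members they were found in 3, with S487D above in 1 and below in 2.

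Shmt2, the mitochondrial serine hydroxymethyltransferase that passes carbon from serine to folate, had 78.8, 74.0 and 76.7 RPKM in S487D and 76.2, 80.3 and 88.0 RPKM in S487A. The groups overlapped (log2 change -0.09, 95% interval -0.21 to 0.04, adjusted p = 0.224). Shmt2 lies on chromosome 7 from 70824719 to 70829824, and its row overlaps that of Ndufa4l2.

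Phgdh, the dehydrogenase that starts serine synthesis, was listed at 0 in all 6 libraries. Genes that every cell uses, Hprt1, Hsp90aa1, Rpl8 and Rps9, were also listed at 0 in all 6 (chosen after their values were seen), so a 0 in this table cannot be read as absence of the transcript. The RefSeq table of GRCr8 holds 6 entries named as Phgdh pseudogenes, and whether they bear on the 0 was not tested. Phgdh lies on chromosome 2 from 200484245 to 200513564.

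Slc7a11, the cystine/glutamate exchanger that supplies cysteine for glutathione, was read at 0.233, 0.308 and 0.345 RPKM in S487D and at 0.324, 0.240 and 0.348 RPKM in S487A, under the filter for testing. The groups overlapped throughout. Its 79 reads in S487D and 87 in S487A gave a ratio of 0.969, with an exact 95% interval from 0.706 to 1.33 that covers counting error only. Slc7a11 lies on chromosome 2 from 139453774 to 139528482, in a long run of lowered genes. Of the 50 nearest tested genes, 47 fell and none rose, with a median log2 change of -0.73, a ratio of 0.603. That ratio lies below the counting interval of Slc7a11, but single neighbours varied widely. Their log2 changes ran from -1.19 (Hspa4l) to 0.07 (Eif3i-ps1), with -0.13 for Mgst2 and -0.25 for Pcdh10. Whether Slc7a11 differs from its neighbours was not tested.

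No other member sat in such a run. The 50 nearest tested genes had median log2 changes of -0.06 around Atf4, -0.01 around Ddit3, 0.03 around Trib3, -0.01 around Chac1, 0.06 around Sesn2, -0.01 around Asns, -0.02 around Psat1, -0.02 around Phgdh and 0.00 around Shmt2. Asns thus lay 0.29 below its neighbours' median and Psat1 0.17 below.

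**Figure D2:**
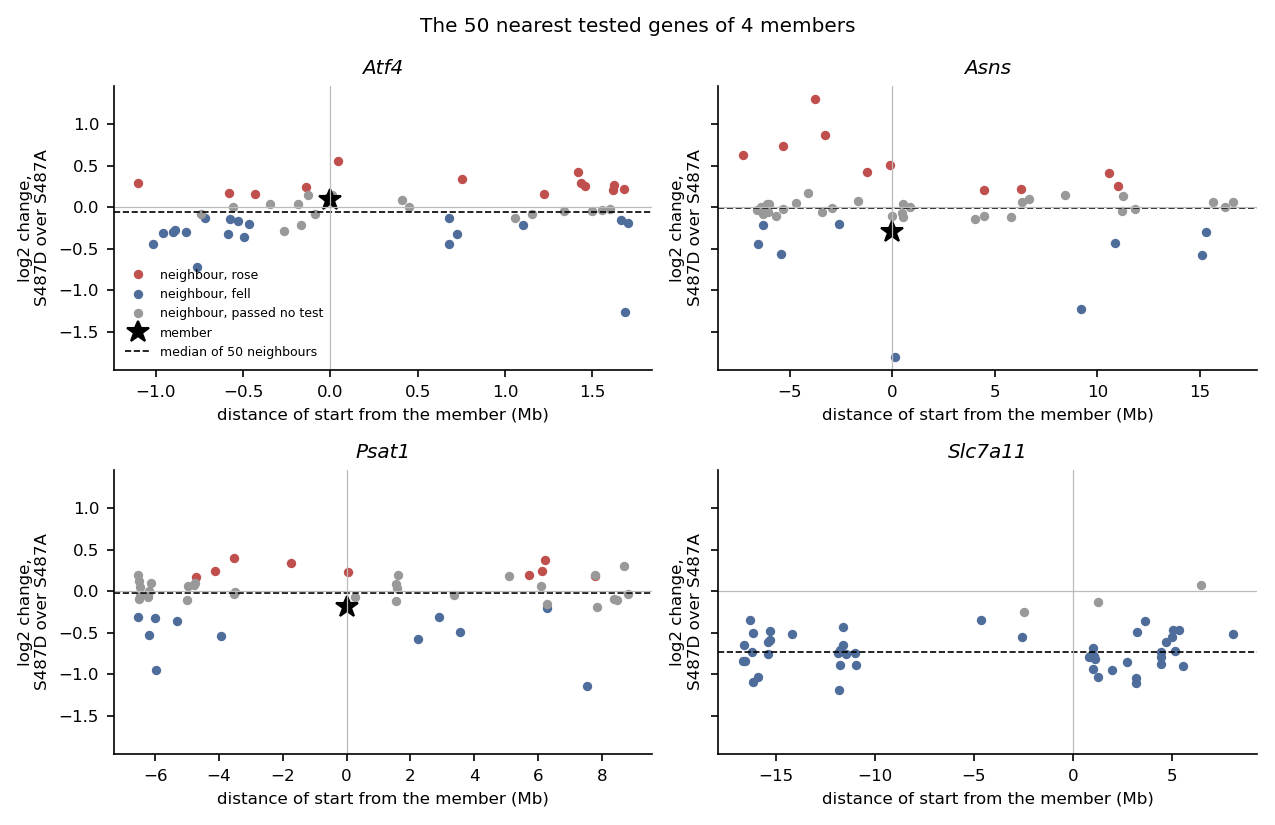
Log2 change (S487D over S487A, RPKM + 1) of the 50 tested genes nearest to Atf4, Asns, Psat1 and Slc7a11 against the distance of their start from the member in Mb, with the member as a star where it was tested and the neighbours' median as a dashed line. Neighbours of Slc7a11 lie almost all below 0, with a median of -0.73, while those of the other 3 scatter around 0.

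Ordered by level per length, the tested members ran from Atf4 (154 RPKM over all 6 libraries, above 96.2% of tested genes) through Shmt2 (79.0), Sesn2 (56.8), Psat1 (41.9), Asns (36.9), Ddit3 (17.4) and Trib3 (4.04) to Chac1 (3.73, above 22.6% of tested genes). Neighbours in this order were apart in all 6 libraries except Psat1 with Asns and Trib3 with Chac1, whose ranges overlapped. The tested genes of synthesis, Shmt2, Psat1 and Asns, thus stood well above Trib3 and Chac1. Atf4 and Sesn2 in turn stood above Psat1 and Asns.

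Within a library, the ratio of a member to Atf4 does not change when all genes are multiplied by a common factor. Quantile normalization is not such a scaling. Asns stood at 0.201, 0.214 and 0.212 of the Atf4 level in S487D, against 0.287, 0.283 and 0.253 in S487A. Psat1 stood at 0.232, 0.260 and 0.249 in S487D, against 0.317, 0.309 and 0.278 in S487A. Both ratios were lower in every S487D library, as were those of Shmt2 (mean 0.484 ± 0.019 in S487D and 0.547 ± 0.019 in S487A) and Trib3 (0.0239 ± 0.003 and 0.0288 ± 0.0019). The ratios of Ddit3, Chac1 and Sesn2 to Atf4 overlapped between groups. Ddit3 over Asns was 0.563 ± 0.046 in S487D and 0.397 ± 0.016 in S487A, without overlap. These ratios share the Atf4 or Asns values and are a description with no test. In their own RPKM, Shmt2 and Trib3 overlapped between groups. How many of all genes tested have a ratio to Atf4 without overlap was not counted. For single genes, groups did not overlap in 54.6% of those tested.

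The wider pathway was read from 6 lists of other genes, to be set beside the 20.1% that rose and the 24.3% that fell among all genes tested. Upstream of ATF4, genes for eIF2 kinases, phosphatase subunits, eIF2 and its exchange factor eIF2B were called in both directions, in shares near those of all genes. Among 18 tested, 4 rose (22.2%), 3 fell (16.7%) and 11 were not called, with a median log2 change of 0.05. Eif2ak3, which encodes PERK, rose to 7.22 ± 0.67 RPKM in S487D, against 6.05 ± 0.24 in S487A (log2 change 0.22, adjusted p = 0.0393). Eif2ak4, which encodes GCN2, fell to 7.82 ± 0.34 RPKM in S487D, against 8.99 ± 0.23 in S487A (log2 change -0.18, adjusted p = 0.0322). Eif2ak2, which encodes PKR, fell by 0.22 and Impact, an inhibitor of GCN2 activation, fell by 0.24 on the log2 scale. The exchange factor genes Eif2b4 and Eif2b5 rose by 0.26 and 0.21 on the log2 scale. Eif2s1, the phosphorylated subunit itself, and Ppp1r15a, which encodes GADD34 and directs its dephosphorylation, passed no test, at log2 changes of 0.05 and 0.01.

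The calls of the kinase genes were near the threshold. Eif2ak3 lost its call with genes of any level tested (adjusted p = 0.0871) and without S487D replicate 1 (adjusted p = 0.115), S487D replicate 3 (0.130), S487A replicate 2 (0.0871) or S487A replicate 3 (0.109). Eif2ak4 lost it after quantile normalization (0.172) or median centring (0.0987) and without any library but S487D replicate 1, with adjusted p of 0.0889 and 0.0865 without S487D replicates 2 and 3, and of 0.0833, 0.0632 and 0.0619 without S487A replicates 1, 2 and 3. Eif2ak2 lost it after quantile normalization (0.0639) and without S487D replicate 1 (0.0502), S487D replicate 3 (0.0537) or S487A replicate 1 (0.058), and Impact without S487D replicate 1 (0.0526). The count of risen genes on this list was 2 without S487D replicate 1 or S487A replicate 3, and that of fallen genes was 1 without S487D replicate 1 or 3.

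Among partners of ATF4 and signalling genes that it induces, 17 were tested. Of these, 4 rose (23.5%), 8 fell (47.1%) and 5 were not called, with a median log2 change of -0.06. Gdf15, a secreted stress hormone, rose most, to 44.4, 40.1 and 44.0 RPKM in S487D, against 14.1, 16.4 and 21.0 RPKM in S487A (log2 change 1.29, SE 0.115, adjusted p = 1.99e-05). The groups were far apart, and the Gdf15 row overlaps that of Lrrc25. Cebpb, a C/EBP partner, rose to 39.0 ± 2.2 RPKM in S487D, against 28.5 ± 0.56 in S487A, and Gadd45a, a growth arrest gene, rose 1.31-fold. The Gadd45a row overlaps that of LOC100912188. Atf5, a related factor whose translation also follows eIF2 phosphorylation, fell to 262, 251 and 249 RPKM in S487D, against 365, 390 and 388 RPKM in S487A (log2 change -0.58, adjusted p = 4.43e-06). Its row overlaps those of Nup62 and LOC100360621. Atf3, a stress factor induced through ATF4, also fell by 0.58 on the log2 scale, Vldlr, a lipoprotein receptor gene, fell by 0.56, and the kinase gene Rps6ka2 fell by 0.57. Cebpg, the other C/EBP partner on the list, and Ddit4, an mTORC1 inhibitor, passed no test at log2 changes of -0.06 and -0.05. The value of Ddit4 turned positive under 2 other scalings, 0.013 with quantile normalization and 0.0088 with median centring. Nupr1, a stress-induced chromatin protein gene, was near the floor of the filter at 0.979 ± 0.204 RPKM in S487D and 1.81 ± 0.484 in S487A; its fall (adjusted p = 0.0162) lost its call without a filter (0.0517), after quantile normalization (0.055) and without S487D replicate 1 (0.059) or S487A replicate 2 (0.0576).

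Enzymes of serine, glycine, folate carbon, proline and sulfur amino acids split. Of 18 tested, 6 rose (33.3%), 4 fell (22.2%) and 8 were not called, with a median log2 change of 0.05. Psph, the phosphatase that completes serine synthesis after Psat1, rose to 47.0, 45.6 and 45.7 RPKM in S487D, against 32.3, 32.2 and 34.3 RPKM in S487A (log2 change 0.47, SE 0.043, adjusted p = 2.27e-05). Psph and Psat1 thus moved in opposite directions in the same 6 libraries. Mthfd2, a mitochondrial folate enzyme downstream of Shmt2, rose 1.09-fold (adjusted p = 0.0218). Its call was lost after quantile normalization (0.0737), without the intensity trend (0.0614) and with a replicate block (0.0558). It was also lost without S487D replicate 1 (0.0797), S487D replicate 2 (0.056), S487A replicate 2 (0.0541) or S487A replicate 3 (0.0522). Pycrl, a gene of proline synthesis, rose by 0.22 on the log2 scale. Got1, the cytosolic aspartate aminotransferase, fell to 61.8 ± 2.3 RPKM in S487D, against 82.8 ± 2.9 in S487A, in a row that overlaps Cnnm1. Gpt2 (alanine aminotransferase) and Glul (glutamine synthetase) fell by 0.41 and 0.25 on the log2 scale, and the Gpt2 row overlaps that of LOC102548349. Aldh18a1, of proline synthesis, was listed at 0 in every library.

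Amino acid transporter genes also went both ways. Of 19 tested, 7 rose (36.8%), 4 fell (21.1%) and 8 were not called, with a median log2 change of 0.04. Slc7a2, a carrier of cationic amino acids, rose to 14.5, 14.0 and 16.4 RPKM in S487D, against 4.33, 4.79 and 4.31 RPKM in S487A (log2 change 1.54, SE 0.073, adjusted p = 3.38e-07). Slc3a2, the heavy chain that Slc7a5 and Slc7a11 share, rose to 128 ± 2.8 RPKM in S487D, against 93.2 ± 2.7 in S487A, and Slc7a5, the large neutral amino acid carrier, rose to 127 ± 0.79, against 107 ± 4.3. Slc6a17 rose 1.35-fold. Slc38a2, a sodium-coupled carrier that is a known target of the response, fell to 46.0 ± 1.3 RPKM in S487D, against 63.3 ± 3.3 in S487A (log2 change -0.45, adjusted p = 6.04e-05). The related Slc38a1 and the lysosomal and proton-coupled Slc36a1 fell by 0.47 and 0.56. Slc38a1 (137970555 to 138040103) and Slc38a2 (138088654 to 138100869) lie close together on chromosome 7. Earlier results of these data place them in a lowered stretch of that chromosome. Their falls are thus not shown to be separate changes, and whether they differ from the genes around them was not tested.

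**Figure D3:**
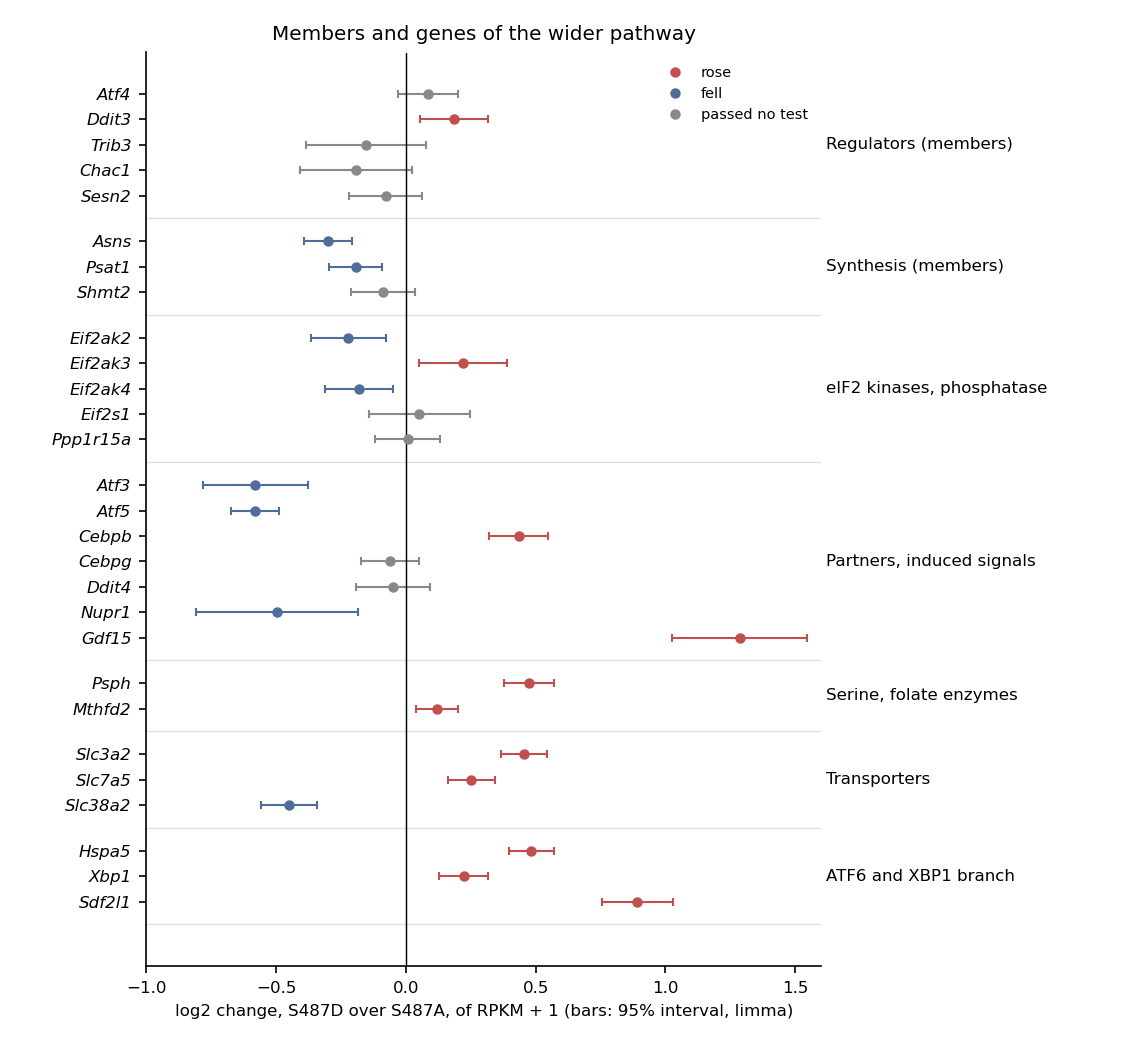
Log2 change (S487D over S487A, RPKM + 1) of the tested members and of selected genes of the wider pathway by role, with 95% intervals from limma over 3 libraries per group. Members lie between -0.30 (Asns) and 0.18 (Ddit3), while Gdf15 lies at 1.29 and Atf3 and Atf5 at -0.58. Slc7a2, with a larger log2 change of 1.54, and the synthetase genes are not shown.

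Cytosolic aminoacyl-tRNA synthetase genes, which charge transfer RNAs, were searched for the TGATGNAA core as well. It was in 7 of the 17 synthetase promoters that matched by symbol (41.2%), beside 3.98% of all promoters. That background also holds promoters of genes not tested here, whereas all 20 synthetase genes were tested. The difference was not tested. Windows of 30 bases around it are shown for Mars, Nars, Iars and Tars, on the strand of each gene, to be read beside the core of Chac1 and Trib3 above.
Mars: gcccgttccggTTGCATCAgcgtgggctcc
Nars: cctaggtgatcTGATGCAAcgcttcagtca
Iars: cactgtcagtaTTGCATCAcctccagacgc
Tars: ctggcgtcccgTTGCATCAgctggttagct
They come from GRCr8 chr7:65023752-65023781 (Mars), chr18:60275778-60275807 (Nars), chr17:15193658-15193687 (Iars) and chr2:62114811-62114840 (Tars), all on the minus strand. Of the 7 synthetase genes with the core, 2 rose (Aars and Tars), none fell and 5 passed no test, with a median log2 change of 0.10, and of the 10 without it, 4 rose, none fell and 6 passed no test, with a median of 0.13. Over the whole list of 20, 6 rose (30%), 1 fell (5%) and 13 were not called, with a median log2 change of 0.07. The histidyl, valyl and phenylalanyl enzyme genes Hars, Vars and Farsa rose most clearly, Hars to 84.7 ± 1.1 RPKM in S487D, against 63.4 ± 2.8 in S487A. The single fall, of Dars (log2 change -0.18, adjusted p = 0.0484), was lost in 10 of 16 alternatives, among them those without S487D replicate 1 (0.0577), 2 (0.0886) or 3 (0.145) and without S487A replicate 1 (0.146) or 3 (0.0896). The Dars row overlaps those of LOC100360508 and LOC102548646. Over all tested genes with a matched promoter, 152 held the core, and 19.7% of them rose and 26.3% fell, beside 21.6% and 24.7% of the 8347 without it.

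The ATF6 and XBP1 branch of the unfolded protein response, the other arms of endoplasmic reticulum stress, gave other counts. Among 28 tested, 19 rose (67.9%, beside 20.1% of all genes), 4 fell (14.3%, beside 24.3%) and 5 were not called, with a median log2 change of 0.21. No test was made of the difference between this list and other genes. Hspa5, the chaperone BiP, rose to 601 ± 16 RPKM in S487D, against 429 ± 8.9 in S487A, Xbp1 rose 1.17-fold, and the chaperone genes Sdf2l1 and Pdia6 rose 1.86-fold and 1.38-fold. Wfs1, the wolframin gene, and Mbtps2 and Mbtps1, proteases that cut ATF6, fell by 0.54, 0.47 and 0.26 on the log2 scale. The Mbtps2 row overlaps that of Yy2. Ddit3 is known, as background, to be induced through these arms as well.

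**Figure D4:**
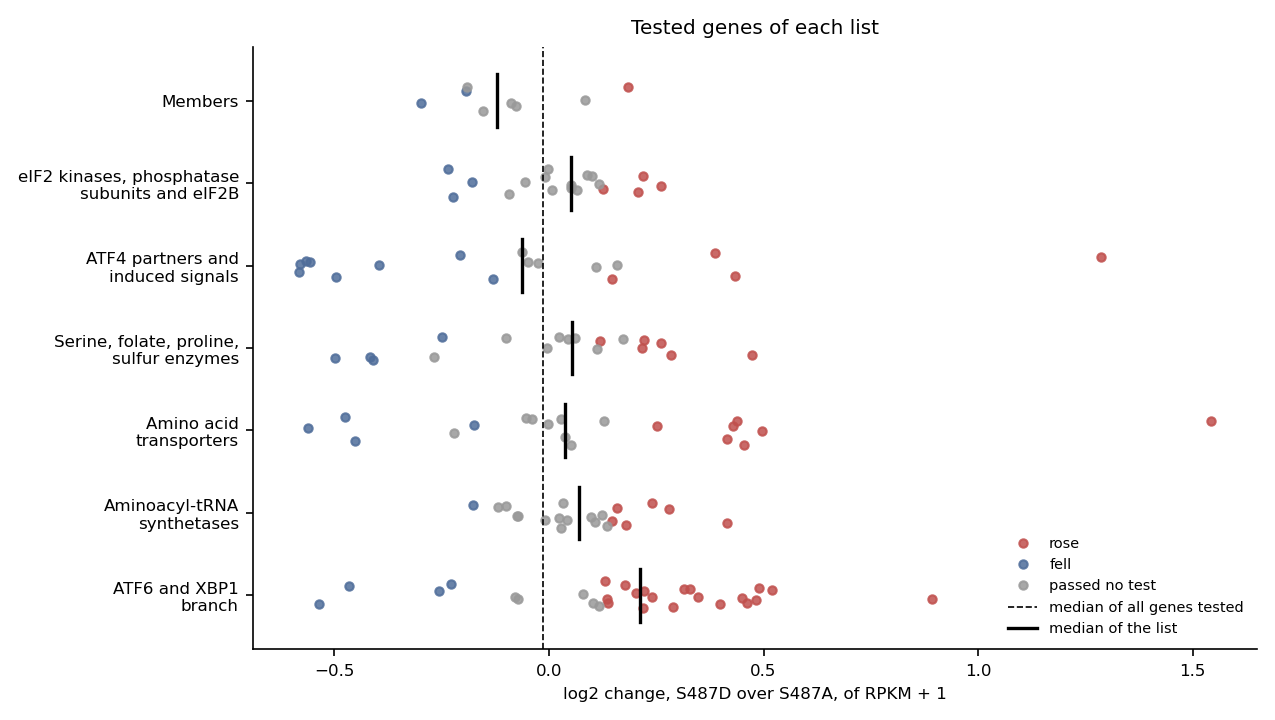
Log2 change (S487D over S487A, RPKM + 1) of every tested gene of the members and of the 6 other lists (points, coloured by call), with each list's median as a black bar and the median of all 12527 genes tested as a dashed line at -0.01. The members' points lie close to 0 with a median of -0.12, and the ATF6 and XBP1 branch has a median of 0.21.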

How the data were processed

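Messenger RNA of 6 INS-1 samples was sequenced, and the titles gave each sample its group and number. The authors deposited RPKM per gene and library, with rn6 positions and gene lengths, per the file headers. The submitters' processing notes name TopHat2 2.0.13, cutadapt and bcl2fastq 2.17; which tool counted reads, and on which annotation, is not stated there. Per the labels' protocols, a TruSeq RNA kit was used. RPKM times length fell within 0.05 of a whole read for 100% of values up to 2000 reads, which gave reads per gene; totals were 9444801 to 10867549, so 1 read in a gene of 1 kb is 0.092 to 0.106 RPKM. Per pair of replicates, the median chi-square over genes was 1.36 to 1.88 times what counting noise gives. Each library was kept as a sample, though this spread may be technical and does not show that cultures were separate.

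The 12527 genes that reached 1 RPKM in 3 or more libraries were fitted in R 4.3.3 with limma 3.58.1, using log2(RPKM + 1), an intensity trend and no term but the group. Tests were two-sided, and p-values were adjusted by Benjamini-Hochberg over these genes. The script was tested on simulated reads. Exact permutation tests ran over libraries. The members and lists were chosen with earlier results of these data known. Genes named are the 10 members, Men1, 18 fixed genes and, per wider list, up to 3 called genes with the smallest p in each direction; Mars (which overlaps Ddit3), Aars, Tars, Nars and Iars (shown for the core) and the genes listed at 0 were named after their values were seen. A gene that this rule names is not reported here. Alternatives were other pseudocounts (0.1 and 0.01), filters (none, RPKM 5), scalings (quantile, median, most read genes and ribosomal RNA left out), no intensity trend, voom on recovered reads, a replicate block and each library left out. Promoters were matched to the RefSeq table (GRCr8) by symbol. Python 3.11.15 with pandas 2.3.3 was used for tables.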

Additional observations from a re-analysis of the deposited data

How the results depend on the processing

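Asns and Psat1 fell in all 16 alternatives, and the members' median log2 change stayed below 0 in each, from -0.15 (without S487A replicate 1) to -0.06 (median centring). The number of members that rose was 0 without a filter on low values and 2 after median centring (Ddit3 and Atf4), and 0 to 1 with each library left out in turn. On the list of eIF2 kinases and eIF2B, 2 rose without a filter, 8 rose after median centring and 1 fell after quantile normalization, and 2 to 4 rose and 1 to 2 fell with each library left out. Of the serine, folate and proline enzymes, 2 fell with a filter at RPKM 5. Of the synthetases, 0 fell with a pseudocount of 0.01, without a filter, after median centring, with the most read genes left out or without the intensity trend, 3 fell after quantile normalization or with voom, and 0 to 1 fell with each library left out. The cause of these shifts was not tested. Log2 changes close to 0 turned sign with libraries left out, from -0.023 to 0.141 for Eif2s1, -0.026 to 0.063 for Ppp1r15a and -0.107 to 0.0058 for Ddit4, and Ddit4 also after quantile normalization (0.013) and median centring (0.0088). With the 20 nearest genes in place of 50, the neighbours' medians were 0.017 for Atf4, 0.12 for Trib3, -0.046 for Chac1, 0.087 for Sesn2, 0.046 for Psat1 and -0.77 for Slc7a11. Samples of the same replicate number showed little correlation of deviations (0.0035, -0.060 and 0.010 for numbers 1, 2 and 3). That cannot show whether they were handled together. With a replicate block 2369 genes rose and 2966 fell. Among the members 1 rose and 2 fell, as without the block. Of the genes named, Mthfd2 lost its call (limma adjusted p = 0.0558). Depth limits Trib3, Chac1 and Slc7a11, with at most 76 reads per library.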
